A study of Mus musculus with 8 samples.

Results

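The genes described are Myt1l, Myt1 and St18, a family of zinc finger transcription factors, in fat from around the thoracic aorta of mice. The members are the genes to which the platform annotation gives a probe set of their own under one of these symbols, and each of the 3 had exactly 1 such probe set, among 18782 genes so represented. Myt1l was picked because it was the only gene past the threshold of a comparison across the whole array, so its difference between the groups is described here and not tested. Myt1 and St18 were added as its paralogs, whatever their values.

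Of the 8 arrays, 4 came from samples labelled RictoraP2KO and 4 from control samples labelled with the genotype Rictorfl/fl, in which loxP sites flank part of both copies of Rictor. Rictor is the defining subunit of mTOR complex 2, and in the knockout its deletion relies on Cre driven by the aP2 (Fabp4) promoter, a driver for fat cells that is known to act in other tissues too; the title of the series names brain beside fat. All mice were male and 17 to 22 weeks old, were fasted overnight and were killed at 9 am with no treatment, and the aorta was removed from the fat before RNA extraction. The title places the study's question in clock genes of peripheral tissue and blood pressure. Values are RMA signals on the log2 scale, given as mean ± SD (n = 4 arrays a group), and each difference, with its standard error (SE) from limma, is the RictoraP2KO mean minus the control mean on that scale.

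Facts that bear on every array come first. Every array had a median of 3.76, and values ran from 1.04 to 12.5, so a change in the total amount of RNA would not be seen. Defining genes of fat cells gave high signal in this tissue, with a mean over the 8 arrays of 10.9 for Adipoq, 11.7 for Fabp4 and 11.7 for Ucp1, the uncoupling protein of brown fat. The arrays labelled RictoraP2KO did not have less Rictor signal, at 6.68 ± 0.08 there and 6.54 ± 0.06 in the control arrays, a difference of 0.14 (SE 0.063; limma adjusted p = 0.685). The deleted exons and the probe positions were not used here, so it is unknown whether this signal can show the deletion, and every direction below rests on the array labels. Signal of other tissue was present. Cardiac muscle genes gave signal in every array, Actc1, cardiac actin, between 6.66 and 9.84, and the mean of 8 such genes was lowest in RictoraP2KO replicate 1, at -1.27, and highest in RictoraP2KO replicate 2, at 1.60. Other tissues stood out in 1 array each: the mean of 10 skeletal muscle genes stood at 1.24 in RictoraP2KO replicate 2, that of 8 lung epithelial genes at 2.84 in control replicate 2 and that of 16 neuron genes at 1.02 in control replicate 3, all on a log2 scale centred on the gene's mean over the 8 arrays.

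Proteins of this family bind DNA through clusters of zinc fingers of a cysteine and histidine type found in few other proteins, and recognise the short core AAGTT. MYT1L is a factor of neurons, where it holds down genes of other cell types, Notch signalling among them, and it is one of the factors used to turn fibroblasts into neurons in culture. MYT1 acts in neural progenitors, in oligodendrocyte precursors and in endocrine cells of the pancreas, and ST18, also called MYT3, in neurons and pancreatic islets. Members recruit corepressor complexes built on SIN3 and histone deacetylases. Fat tissue is reached by fibres of sympathetic neurons, whose cell bodies lie in ganglia outside it.

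The genomic sequence at annotated transcription starts is shown because the core that the family binds can be looked for there. It is shown for 2 members only, since no window was available for St18. Windows run from 250 bases before a start to 50 after it, on the plus strand of GRCm38.p6, and come from RefSeq, which gave 5 windows for Myt1l and 3 for Myt1. The first one shown is the window of Myt1l that holds the core most often, at chr12:29534972-29535271, and the second is the one window of Myt1 that holds the longer form AAAGTTT, at chr2:181796057-181796356. Capitals mark AAGTT or its reverse complement.
Myt1l: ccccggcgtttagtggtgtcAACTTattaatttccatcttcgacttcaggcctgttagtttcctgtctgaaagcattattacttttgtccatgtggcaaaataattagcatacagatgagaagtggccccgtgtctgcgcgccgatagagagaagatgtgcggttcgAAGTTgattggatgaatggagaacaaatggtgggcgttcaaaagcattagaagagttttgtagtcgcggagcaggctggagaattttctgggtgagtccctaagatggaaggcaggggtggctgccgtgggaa
Myt1: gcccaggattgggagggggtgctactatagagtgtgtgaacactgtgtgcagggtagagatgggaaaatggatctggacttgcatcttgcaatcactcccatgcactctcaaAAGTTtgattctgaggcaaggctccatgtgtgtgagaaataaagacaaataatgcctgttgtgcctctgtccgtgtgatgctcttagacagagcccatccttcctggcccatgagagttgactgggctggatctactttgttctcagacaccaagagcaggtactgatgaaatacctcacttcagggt
The core AAGTT, searched on both strands, was found in 2 of the 5 Myt1l windows and in 3 of the 3 Myt1 windows, against 39.3% of the 32851 windows of this length in the table. The form AAAGTTT, which contains the core, was found in 0 of 5 and 1 of 3 windows, against 4.74% of all. CACGTG, the E-box bound by the clock proteins CLOCK and BMAL1, was in 0 of these 8 windows, against 7.15% of all. These matches describe letters in a window, and binding was not measured.

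Myt1l had a signal near the middle of the array in the samples labelled RictoraP2KO and well below it in the control samples. Its probe set (10395074) read 3.81, 3.54, 3.60 and 3.71 in RictoraP2KO replicates 1 to 4, against 2.76, 2.61, 2.77 and 2.57 in control replicates 1 to 4. The groups did not overlap: the lowest array labelled RictoraP2KO stood 0.77 above the highest control array, while the arrays within a group spanned 0.27 for RictoraP2KO and 0.20 for control. The means were 3.66 ± 0.12 in the arrays labelled RictoraP2KO and 2.68 ± 0.10 in the control arrays, a difference of 0.99 (SE 0.080). This is the contrast that chose the gene. Its limma adjusted p of 0.0198 was the only one of 28371 under the threshold of 0.05 (0.00352% of probe sets), and the value just outside was 0.116, shared by Trdn, the triadin gene of muscle calcium release (difference 1.26, SE 0.142), and Olfr767, an olfactory receptor gene (difference -0.58, SE 0.066). With 1 array left out at a time, that p was under 0.05 in 2 of the 8 fits, those without RictoraP2KO replicate 1 or 2, and at most 0.179 in the others, while the difference stayed between 0.94 and 1.03. With the replicate number as a block it was 0.245. RictoraP2KO arrays all above control arrays were found for 2.08% of probe sets, Myt1l among them by its selection. Since this is bulk tissue, more cells that contain Myt1l RNA and more such RNA per cell cannot be told apart. With 1 probe set at these levels, neither can be told from signal that does not come from Myt1l RNA.

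The place of Myt1l within each array shows the same values from another side. Its percentile among all probe sets of the array was 47.6 to 50.5 in the arrays labelled RictoraP2KO, and 30.8 to 35.4 in the control arrays. In RictoraP2KO replicate 1 it was 0.05 above the array's median, and in the other 7 arrays it was below, by as much as 1.20 in control replicate 4. It stood 2.50 to 2.77 above the lowest value of the array in the samples labelled RictoraP2KO and 1.52 to 1.72 above it in the control samples. Many probe sets lie at such levels in every array, so they do not by themselves separate a transcript from background hybridisation, and no fold is given.

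**Figure D1:**
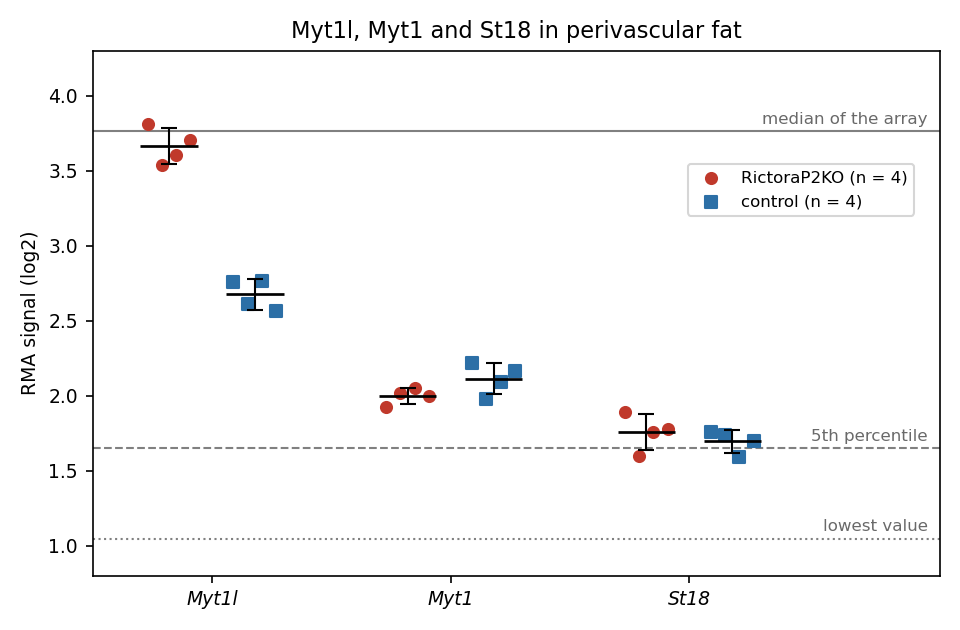
RMA signal on the log2 scale (vertical axis) of the 3 genes in each array, with arrays labelled RictoraP2KO as circles and control arrays as squares; bars are mean ± SD (n = 4), and lines mark the median, the 5th percentile and the lowest value, which were nearly equal in all arrays. Of the 3 genes only Myt1l has groups that are apart, at means of 3.66 for RictoraP2KO and 2.68 for control, and the St18 values lie around the 5th percentile.

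The spread of the Myt1l values was set beside that of probe sets with a like difference and of those with a like level. A total of 31 probe sets, Myt1l included, differed by at least as much in either direction. Among them Myt1l had the smallest residual SD, 0.111, followed by a Trdn probe set at 0.231. The 31 were not all separate genes, since several were Trdn probe sets. The largest residual SD, 2.58, was that of Sftpc, a lung gene high in control replicate 2 alone. Beside the 2175 other probe sets whose mean lay within 0.25 of its own, the residual SD of Myt1l was ordinary: the median of that band was 0.137, and 31.9% of the band had a smaller one. In the same band the median absolute difference between groups was 0.08, and 5 of the 2175 (0.230%) had one at least as large as Myt1l. The place of Myt1l by residual SD among the 31 was fixed by its selection. A probe set with a difference as large and a smaller SD would have had a lower limma p. The counts too use the contrast that chose the gene and describe it only.

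**Figure D2:**
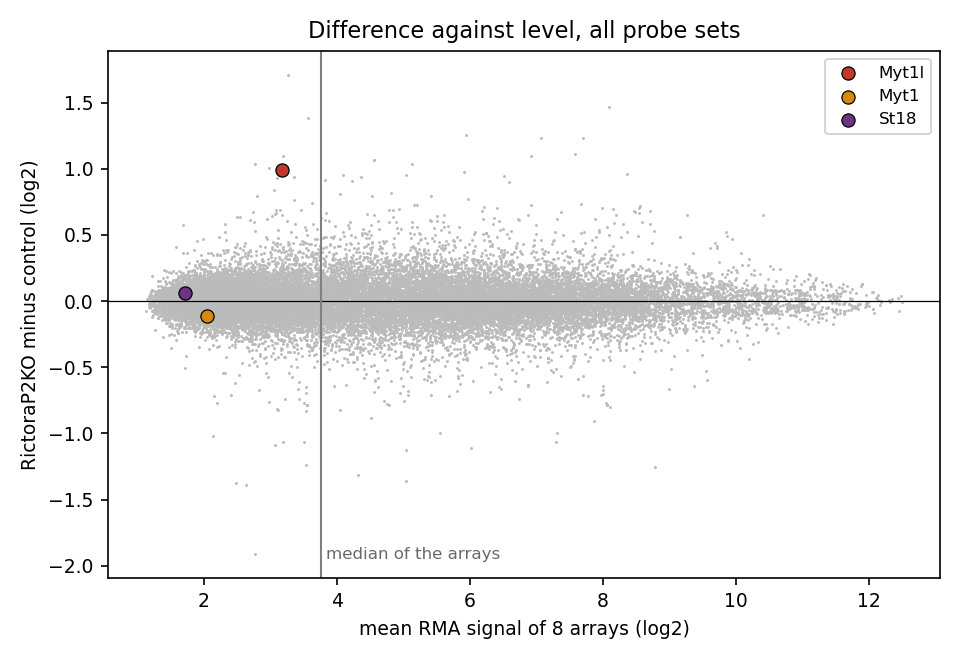
Difference between the groups (vertical axis, RictoraP2KO minus control, log2) against the mean signal of the 8 arrays (horizontal axis, log2) for all 28371 probe sets in grey, with the 3 genes in colour and the array median as a vertical line. Myt1l stands at a difference of 0.99 and a level of 3.17, while Myt1 and St18 lie inside the cloud at its dim end.

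Myt1, the paralog of neural and oligodendrocyte precursors, lay in the dim part of every array and did not pass the test between the groups. Its probe set (10479698) read 1.93, 2.02, 2.05 and 2.00 in RictoraP2KO replicates 1 to 4, against 2.22, 1.98, 2.09 and 2.16 in control replicates 1 to 4. The groups overlapped, since control replicate 2 lay below 3 of the 4 arrays labelled RictoraP2KO. The means were 2.00 ± 0.05 in the arrays labelled RictoraP2KO and 2.11 ± 0.10 in the control arrays, and the difference was -0.12 (SE 0.067; 95% interval from -0.27 to 0.04; limma adjusted p = 0.762). Its percentile among all probe sets ran from 12.2 to 16.1 in the arrays labelled RictoraP2KO and from 13.9 to 21.2 in the control arrays.

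St18, the paralog of neurons and islets, lay near the floor of every array, and its groups overlapped too. Its probe set (10344679) read 1.89, 1.60, 1.76 and 1.78 in RictoraP2KO replicates 1 to 4, against 1.76, 1.74, 1.59 and 1.70 in control replicates 1 to 4. The means were 1.76 ± 0.12 in the arrays labelled RictoraP2KO and 1.69 ± 0.08 in the control arrays, a difference of 0.06 (SE 0.075; 95% interval from -0.11 to 0.23; limma adjusted p = 0.874). Its percentile was 3.97 to 11.2 in the arrays labelled RictoraP2KO and 3.71 to 7.58 in the control arrays, 0.54 to 0.85 above the lowest value of the array over all 8. The intervals of Myt1 and St18 end at 0.04 and 0.23, and signals this near the floor respond little to a change in transcript. The Myt1l difference is not set against them as a test, since it was picked from the whole array. Probe sets differ in how strongly their probes bind, so the levels of the 3 genes are not ranked against each other.

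Between arrays the members did not share one pattern. Over the 8 arrays, which share one fit and one normalisation, Pearson's r was -0.64 for Myt1l with Myt1, 0.42 for Myt1l with St18 and -0.36 for Myt1 with St18. With each value centred on its group mean, so that the gap between groups no longer enters, these were -0.12, 0.48 and -0.21. RictoraP2KO replicate 1 had the highest values of Myt1l and of St18 and the lowest of Myt1. These figures are a description of 8 points that fall into 2 groups.

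The nearest genes on the chromosome were examined because a change that reached beyond 1 gene could show there. For each member, up to 3 protein-coding genes on either side that had a probe set of their own were taken in the gene order of RefSeq GRCm38.p6, which gave 17 genes; beyond Polr3k the order on the Myt1 side held no further one. None of the 17 passed the test (limma, smallest adjusted p = 0.655), and 3 had an unadjusted p under 0.05, where 7.27% of all probe sets did. The groups overlapped in 16 of the 17; no overlap in either direction was found for 4.25% of all probe sets.

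Around Myt1l, on chromosome 12, none of the 6 neighbours passed the test. The nearest measured genes are Eipr1, whose product takes part in endosome sorting, and Pxdn, which encodes peroxidasin, an enzyme that cross-links collagen of basement membranes. Eipr1 stood at 4.91 ± 0.21 in the arrays labelled RictoraP2KO and 4.98 ± 0.10 in the control arrays, a difference of -0.07 (SE 0.107). Pxdn stood at 8.15 ± 0.25 in the arrays labelled RictoraP2KO and 8.01 ± 0.26 in the control arrays, a difference of 0.14 (SE 0.157). Further out, Trappc12, a subunit of a vesicle tethering complex, differed by -0.05, Sntg2, a syntrophin of the dystrophin complex, by -0.16 and Tmem18 by -0.05. Adi1, an enzyme of methionine salvage and the third measured gene on one side, had the largest difference of the 6, -0.34 (SE 0.120; unadjusted p = 0.019, adjusted p = 0.655), opposite in sign to Myt1l. The upper ends of the intervals of these 6 genes ran to at most 0.50. The Myt1l difference is not set against them as a test, since it was picked from the whole array. Genes without a probe set of their own were passed over, and whether a change reached beyond Myt1l was not tested.

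The surroundings of the 3 members share gene families, as the gene names show. Sntg2 lies near Myt1l and Sntg1 near St18, and Pcmtd2 lies near Myt1 and Pcmtd1 near St18. Pcmtd1, which encodes a protein of the methyltransferase family that repairs aged aspartate, was the one neighbour whose groups did not overlap, at 8.57 ± 0.03 in the arrays labelled RictoraP2KO and 8.42 ± 0.07 in the control arrays (difference 0.15, SE 0.055; limma adjusted p = 0.667). Its paralog Pcmtd2 differed by -0.05 (SE 0.183). Sntg1 differed by 0.06 (SE 0.103). Near Myt1, Polr3k, a subunit of RNA polymerase III, differed by -0.39 (SE 0.153; adjusted p = 0.668), Rgs19, a regulator of G protein signalling, by -0.11, Oprl1, the nociceptin receptor, by -0.04 and Lkaaear1 by 0.03. Near St18, Rb1cc1, which starts autophagy, differed by 0.11, Rrs1, of ribosome assembly, by 0.15, Alkal1, a ligand of the receptor ALK, by -0.02 and Npbwr1, a neuropeptide receptor, by -0.0083. None of them passed.

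**Figure D3:**
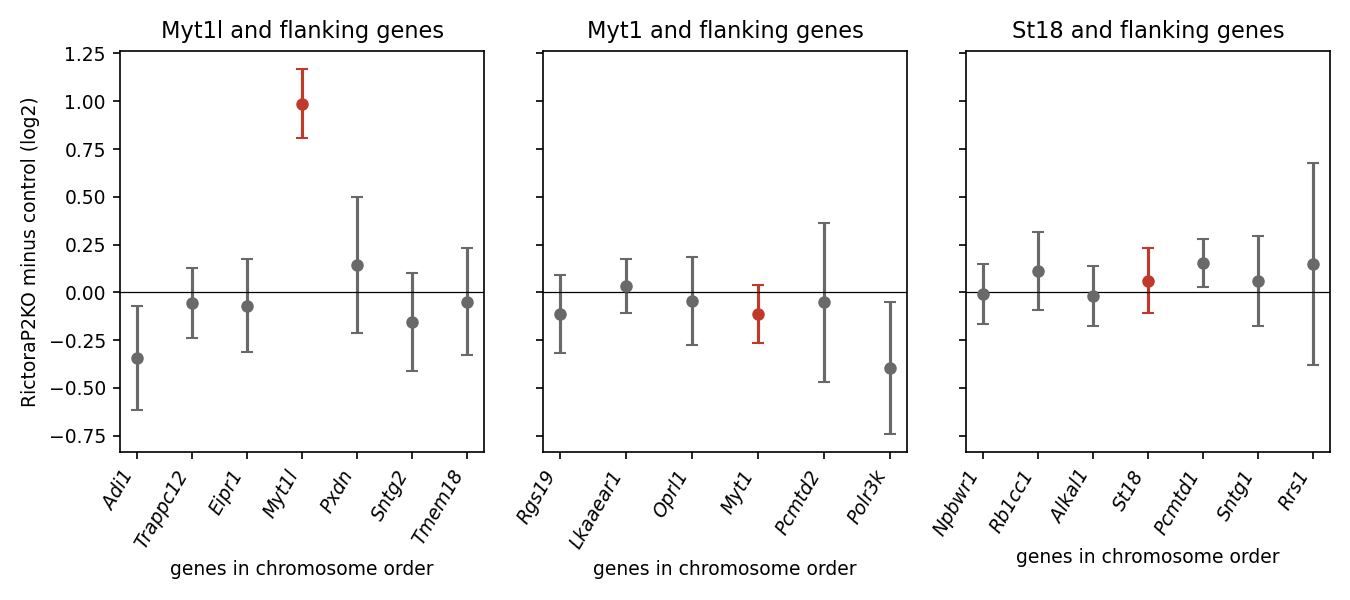
Difference between the groups (vertical axis, RictoraP2KO minus control, log2) with its 95% interval for each member in red and its neighbours in grey, in chromosome order (horizontal axis). Myt1l stands at 0.99 among neighbours between -0.34 and 0.14; Myt1 and St18 lie among theirs.

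Neuron genes were read beside Myt1l because its known place is the neuron. Th, Dbh, Snap25 and Syt1 were high in 1 control array, and Myt1l was not, while others of the list, such as Map2 and Rbfox3, were even across the control arrays. Th, tyrosine hydroxylase of noradrenaline synthesis, read 2.58, 2.57, 3.16 and 2.50 in RictoraP2KO replicates 1 to 4, against 2.60, 2.79, 5.71 and 2.96 in control replicates 1 to 4. Dbh, the enzyme that makes noradrenaline, read 2.27, 2.91, 2.76 and 2.46 in RictoraP2KO replicates 1 to 4, against 2.48, 2.35, 5.86 and 2.77 in control replicates 1 to 4. Snap25 and Syt1, of synaptic vesicle release, were at 5.79 and 5.64 in control replicate 3 and at most 3.42 and 3.51 elsewhere. Myt1l in that array was 2.77, inside the 0.20 spanned by the control group, and below all 4 arrays labelled RictoraP2KO. The genes named here were picked from the list after their values were seen.

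Over the whole list, 15 of the 16 measured neuron genes were lower on average in the arrays labelled RictoraP2KO, with a median difference of -0.22, against -0.0033 for all probe sets. None passed the limma test (smallest adjusted p = 0.732; 0 had an unadjusted p under 0.05). The mean of the list ran from -0.21 to -0.12 in the arrays labelled RictoraP2KO and from -0.18 to 1.02 in the control arrays, and without control replicate 3, the one high array, 9 of 16 were lower, with a median of -0.05. Of the 16 genes, 1, Stmn2, had a mean above the array median. The Myt1l difference was 1.02 without that array. Of 9 measured genes of Schwann cells and oligodendrocytes, 5 were above 0 and 4 below; S100b, a glial gene that fat cells also express, stood at 5.05 ± 0.34 in the arrays labelled RictoraP2KO and 6.05 ± 0.74 in the control arrays and did not pass (limma adjusted p = 0.651). The 9 islet genes, which mark the endocrine cells where Myt1 and St18 act, all had means below the array median, from 2.28 to 3.20, and 3 of them were above 0 in difference.

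**Figure D4:**
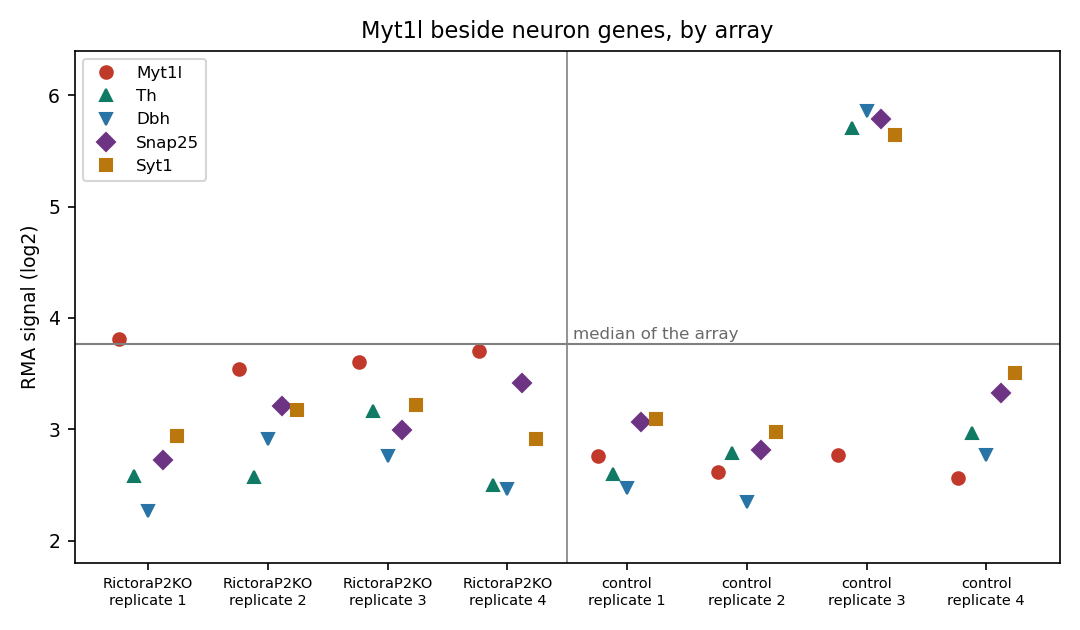
RMA signal on the log2 scale (vertical axis) of Myt1l and 4 neuron genes in each of the 8 arrays (horizontal axis), with the array median as a line. The neuron genes stand between 5.64 and 5.86 in control replicate 3 and under the median in the other 7 arrays, while Myt1l is at 2.77 in that array and 3.54 or more in all 4 arrays labelled RictoraP2KO.

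Signal of other tissues was likewise set beside Myt1l. Without RictoraP2KO replicate 2, control replicate 2 and control replicate 3 together, the Myt1l difference was 1.04 (SE 0.105; 3 arrays against 2), and its limma adjusted p was 0.969. Those 5 arrays were uneven in cardiac muscle genes, of which 0 of 8 were then above 0, with a median difference of -0.88, against 2 of 8 and -0.10 with all arrays. Adipocyte genes had a centred mean from -0.05 to 0.23 in the arrays labelled RictoraP2KO and from -0.09 to 0.04 in the control arrays, with the highest value in RictoraP2KO replicate 1, where Lep, the leptin gene, read 5.81 against 2.74 to 3.76 in the other 7 arrays (a gene picked after its values were seen). Brown fat genes ran from -0.61 to 0.34 in the arrays labelled RictoraP2KO and from -0.21 to 0.28 in the control arrays. Cardiac muscle genes ran from -1.27 to 1.60 in the arrays labelled RictoraP2KO and from -0.95 to 0.74 in the control arrays. B cell genes ran from -0.30 to 0.77 in the arrays labelled RictoraP2KO and from -0.32 to 0.05 in the control arrays, and all 8 measured were above 0 in difference, with a median of 0.25 (0 passed by limma, smallest adjusted p = 0.698, and 0 had an unadjusted p under 0.05). Without the 3 arrays all 8 were again above 0, with a median of 0.19. In each of these 4 lists the groups overlapped, and their part in the Myt1l values was not tested.

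Corepressor genes, the partners through which the family represses, gave clear signal and did not pass the test. All 6 had means above the array median, from 5.63 to 7.76. Of these, 1 was above 0 and 5 below, with a median difference of -0.07, and 0 of 6 passed (limma, smallest adjusted p = 0.799; 0 had an unadjusted p under 0.05). The demethylase gene Kdm1a differed by -0.11 (SE 0.084), the scaffold genes Sin3a by -0.15 (SE 0.130) and Sin3b by -0.10 (SE 0.0998), and Rcor1, the partner of Kdm1a, by -0.04 (SE 0.123).

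Notch pathway genes, which MYT1L is known to hold down in neurons, showed small differences of both signs. Of 19 measured, 14 were above 0 and 5 below, with a median of 0.11, against -0.0033 over all probe sets. None passed (limma, smallest adjusted p = 0.649), and 1 of the 19 had an unadjusted p under 0.05 and groups that did not overlap, where 7.27% and 4.25% of all probe sets did, so the count does not set the list apart. The gene with that p was Maml1, the coactivator that joins the Notch complex in the nucleus, at 5.25 ± 0.10 in the arrays labelled RictoraP2KO and 4.95 ± 0.12 in the control arrays, a difference of 0.30 (SE 0.081). Its lowest RictoraP2KO array was 5.13 and its highest control array 5.12, leaving a gap of 0.005 between the groups. Hey1, a target repressor, differed by -0.36 (SE 0.186), Lfng, which modifies the receptors, by 0.16 (SE 0.082) and Rbpj, the DNA-binding partner, by 0.19 (SE 0.108). Without the 3 arrays in which skeletal muscle, lung or neuron genes stood out, 12 of the 19 were above 0 and 7 below. Their median was then 0.04. The target genes Hes1 and Hes5 read 4.76 and 3.34 as means over the 8 arrays.

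Neurogenic transcription factors, several of which are used with MYT1L to make neurons from other cells, were mostly dim. Of the 16 measured, 2, Tcf4 and Rest, had means above the array median, at 7.90 and 5.59; REST represses neuronal genes outside neurons. In difference 10 were above 0 and 6 below, with a median of 0.02. None passed (limma, smallest adjusted p = 0.732; 0 had an unadjusted p under 0.05). Pou3f2, which encodes BRN2, a classic partner of MYT1L in reprogramming, read 1.90 ± 0.05 in the arrays labelled RictoraP2KO and 2.02 ± 0.15 in the control arrays, a difference of -0.13 (SE 0.079). Its relative Pou3f4 differed by -0.11 (SE 0.058), Tcf4 by 0.15 (SE 0.081) and Insm1, a zinc finger factor of neuroendocrine cells, by 0.08 (SE 0.048). The groups of 2 of the 16 genes did not overlap, with gaps of 0.03 for Pou3f4, all below, and 0.05 for Insm1, all above, between the nearest arrays; over all probe sets the RictoraP2KO arrays were all below in 2.17% and all above in 2.08%.

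The genes most like Myt1l over the 8 arrays, by Pearson's r and as a description only, were Vmn2r99, a vomeronasal receptor (r = 0.97), Gimap6, a GTPase of lymphocytes (0.95), Sema6d, a semaphorin (0.93), B3gnt7, a glycosyltransferase (0.93) and Tm9sf2 (0.93). Each had all 4 RictoraP2KO arrays above all 4 control arrays, which such an r nearly requires. Their differences were far smaller, between 0.13 and 0.31, and none passed. Within the groups, after centring on the group mean, their r with Myt1l was 0.34 to 0.70. By that second measure other genes came first, Ctnnbip1, an inhibitor of beta-catenin (0.99), Syndig1l (0.99), Sertad3 (0.97), Pp2d1 (0.96) and Kif24 (0.95), whose groups all overlapped. No gene stood among the first 5 by both measures.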

How the data were processed

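The authors deposited 1 table of log2 RMA signals, 1 array per sample and 28371 probe sets; per the submitters' processing notes it was made with RMA in Affymetrix Power Tools 1.10.2. RMA corrects background, quantile-normalises probes and summarises each set, so group differences in total RNA are lost. The platform annotation named the probe sets (21158 with 1 symbol, 1881 with several, 5332 with none). Where a gene had several probe sets, the one with the highest mean stood for it. Differences, SE and p-values came from two-sided tests in limma 3.58.1 (functions lmFit and eBayes, R 4.3.3) with no filter or covariate, and with Benjamini-Hochberg adjustment over all 28371 and a threshold of 0.05. The fit was tested on simulated data with independent noise in each probe set. Signal of other tissue shared between probe sets, as in these arrays, was not simulated. The labels do not say that samples were separate animals, so p-values measure the spread between samples, and the number of arrays limits precision. Members, gene lists and tests were chosen with earlier results of these data known. The genes named are Rictor, the members, up to 3 flanking genes a side, the first 4 by unadjusted p in each pathway list, the 5 most like Myt1l by each measure, and the probe set next after Myt1l; marker genes and others named for their levels were added after their values were seen. Alternatives covered the filter, normalisation, variance model, replicate number, arrays left out, probe sets tested and threshold.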

Additional observations from a re-analysis of the deposited data

Results flagged for a closer look

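In groups of 4 arrays, the highest or lowest was set apart when its gap to the next was large for the group's range (Dixon's test at the 95% level). This was done for 68 groups, the 3 members, Rictor, the 17 flanking genes and 13 gene lists in each genotype, and chance alone marks about 1 in 20. It marked 5, and no group of Myt1l, Myt1, St18 or Rictor. Rrs1, which lies near St18, stood at 4.43 in RictoraP2KO replicate 2, the next being 3.71. The centred mean of adipocyte genes was 0.23 in RictoraP2KO replicate 1, the next being -0.04, and Lep, 1 of its 11 genes, read 5.81 there against 3.48 in the next array of the group. That of skeletal muscle genes was 1.24 in RictoraP2KO replicate 2, that of lung epithelial genes 2.84 in control replicate 2 and that of neuron genes 1.02 in control replicate 3.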

How the results depend on the processing

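The Myt1l difference was positive in all 18 alternatives that kept its probe set, from 0.94 to 1.04. That sign was fixed in advance: the groups did not overlap, so no array left out could reverse it. Settings other than array weights and arrays left out returned the main difference, 0.99. The number of probe sets past the threshold, 1 in the main setting, was not stable. It was 0 when dim probe sets were removed, all 3 members among them (limma, 976 at an unadjusted p under 0.05). It was 0 with no moderation (1960) and 0 with the replicate block (1675). Without the 3 arrays in which skeletal muscle, lung or neuron genes stood out it was also 0 (1328, fewer samples). With 1 array left out the count ran from 0 to 5, reaching 5 without RictoraP2KO replicate 1 and staying at 1 without RictoraP2KO replicate 2; without any other 1 array it was 0, with 1627 to 2368 at an unadjusted p under 0.05, and the cause was not tested. The Myt1l adjusted p then ran from 0.0234 to 0.179, and over all alternatives from 0.0112 to 0.969. With the replicate block it was 0.245. Same-numbered samples did not deviate together (correlations from -0.15 to 0.09, no sample best matched to its own number). With so few pairs, and signal of other tissue in single arrays, this cannot tell whether the number marks a pairing. The block left Myt1 at an adjusted p of 0.859 and St18 at 0.909. Myt1 stayed negative (-0.20 to -0.08) and St18 positive (0.02 to 0.11) in all 18, with 0 calls. For these 2 genes too, only array weights and arrays left out moved the difference.

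Of 31 other named genes, 21 kept their sign in every alternative run. With 1 array left out, differences crossed 0 for Trappc12 (-0.0889 to 0.0102), Tmem18 (-0.143 to 0.0213), Oprl1 (-0.105 to 0.0122), Lkaaear1 (-0.006 to 0.057), Pcmtd2 (-0.177 to 0.067), Alkal1 (-0.0662 to 0.0052), Npbwr1 (-0.047 to 0.0383), Sntg1 (-0.0199 to 0.136), Rrs1 (-0.039 to 0.261) and Rcor1 (-0.154 to 0.0074). Without the 3 arrays, Tmem18 was at 0.17, Oprl1 at 0.0248, Pcmtd2 at 0.0217 and Rrs1 at -0.32, and Npbwr1 was at 0.0191 with array weights. Trdn passed without RictoraP2KO replicate 1 (limma adjusted p = 0.0126). List counts without arrays that stood apart were added after seeing the data. Depth has no meaning here; signal near the floor limits Myt1 and St18.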
